A study of Mus musculus with 12 samples.

Results

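The genes of cholesterol synthesis and of its control by SREBP2 were examined in alveolar macrophages after repeated ozone exposure. The set holds 27 genes, chosen by name as enzymes or regulators of the pathway, out of 55291 gene symbols in the deposited table. All 27 were in the table, and all 27 passed the filter on low values that left 19633 genes, with every one of the 12 mice above the lowest shared value of its batch. The alveolar macrophage is the phagocyte that resides in the air sacs, and these cells had been flow-sorted from lungs of female C57BL/6NJ mice aged 8 to 11 weeks, with no transgene or deletion named in either group. One group of 6 mice had breathed 0.8 ppm ozone for 4 h a day on 4 days in a row, and 6 mice had breathed filtered air. Lungs were taken 3 days after the last exposure, and cells were sorted in 2 batches, each with 3 mice of either group. By its title, the study relates pulmonary tolerance to ozone to the expression profile of these cells.

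Cholesterol is built from acetyl-CoA. The mevalonate steps make the isoprenoid farnesyl diphosphate, and the later steps join it into squalene, close the rings and trim lanosterol to cholesterol. SREBP2, encoded by Srebf2, is the transcription factor that switches these enzymes on. When sterols are plentiful, the INSIG proteins hold SREBP2 and its escort SCAP in the endoplasmic reticulum. When sterols run low, SCAP carries SREBP2 to the Golgi for cleavage. Insig1 is itself a target of SREBP2, which makes its mRNA a common readout of the pathway. Alveolar macrophages take up and clear surfactant, a material rich in phospholipid and cholesterol.

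Each value is variance-stabilized expression on a log2 scale, and each gene is set to a filtered-air mean of 0. A negative value therefore lies below the filtered-air mean of that gene. The abundance of a gene and the read totals were not kept, so levels of different genes cannot be compared and the depth behind a value is unknown. The scale compresses changes of genes with few reads. In sorted bulk samples, fewer cells that express a gene and less RNA per cell cannot be told apart.

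After ozone, most genes of the pathway had somewhat lower means. Insig1 and Srebf2 fell, and none of the 19 synthesis enzymes passed the test. Several enzymes came close to the threshold. The means of Cyp51, Msmo1, Pmvk, Fdps, Idi1 and Hsd17b7 lay further below filtered air than that of Srebf2. Pmvk and Hsd17b7 were not close to the threshold (limma's adjusted p = 0.483 and 0.171). Regulators and enzymes were not tested against each other. Of the 27 genes, 21 had a mean below filtered air, against 52.0% of all genes kept. The median difference between ozone and filtered air was -0.13 over the 27 genes and -0.0033 over all genes kept. Within the flow-sort batches the median over the 27 genes was -0.018 in batch 1, with 18 of 27 lower, and -0.18 in batch 2, with 25 of 27 lower, and no gene passed limma's test of a difference between the batches. With an adjusted p under 0.05 in limma, 2 of 27 were called, both lower, where 4.25% of all genes were called in either direction, 1.84% as lower and 2.41% as higher. At an unadjusted p under 0.05, 10 genes were lower and 1 was higher, while 8.29% of all genes were lower and 8.43% higher at that level, 16.7% together. The number of called members depended on the model: 6 were called without the batch covariate, where 5.87% of all genes were, and 6 with the replicate number as a block, where 4.34% were. Both fits have limits. The values were already batch-corrected, so leaving out the covariate kept every difference and only dropped the degree of freedom owed to the batch. Replicate numbers mark different animals. Only Insig1 was called with a variance trend or with RNA integrity as a covariate, and 0 members after quantile normalization. Srebf2 kept its call in 2 of 12 fits that left out 1 mouse. The 4 calls added without the batch covariate and with the block were enzymes in both models, all lower: Idi1, Ggps1, Cyp51 and Msmo1 without the covariate, and Idi1, Fdps, Cyp51 and Msmo1 with the block.

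**Figure D1:**
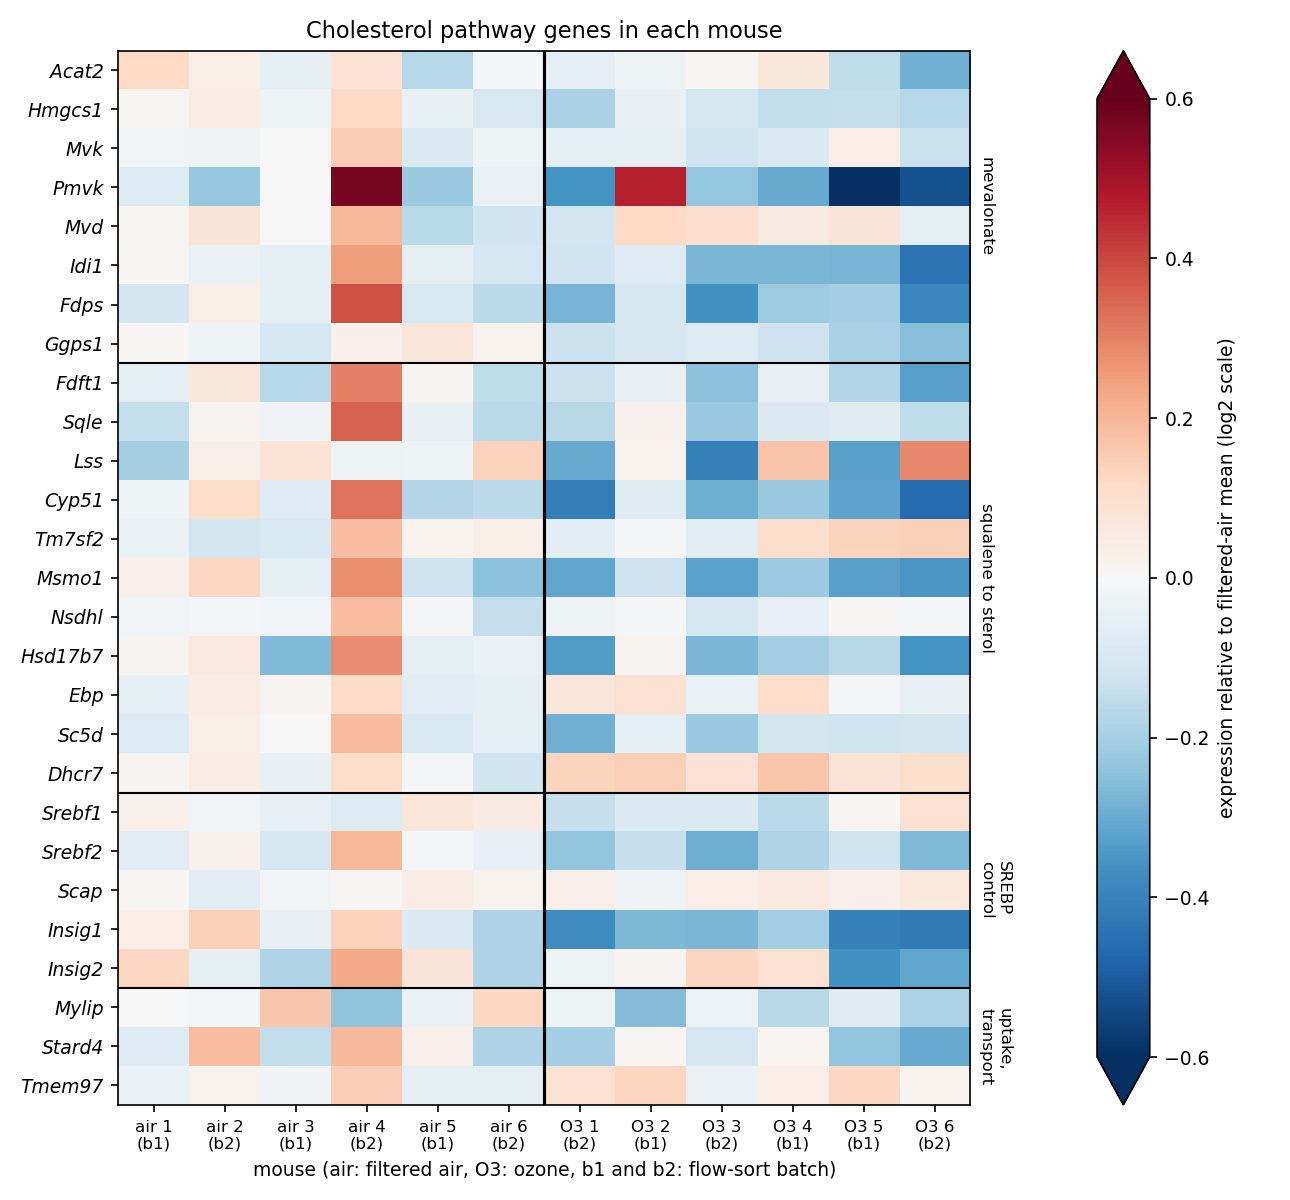
Expression of the 27 genes (rows, grouped by pathway step) in each of the 12 mice (columns), as color on the log2 scale relative to the filtered-air mean, with the flow-sort batch under each mouse. Most rows are blue in the ozone columns, filtered-air mouse 4 is red in most rows, and Dhcr7 is red in all 6 ozone mice. The scale ends at 0.6 on either side, and 1 value of Pmvk (-0.67, ozone mouse 5) lies beyond it.

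The group of SREBP regulators held both called genes. Insig1 encodes a retention protein that keeps SREBP2 inactive when sterols are plentiful. In filtered air its 6 values were 0.04, 0.14, -0.05, 0.14, -0.09 and -0.18. After ozone they were -0.38, -0.27, -0.27, -0.21, -0.41 and -0.43, so every ozone mouse lay below every filtered-air mouse. Insig1 fell by 0.33 (SE 0.0609, limma's adjusted p = 0.00758), from 0 ± 0.130 (SD, n = 6) to -0.33 ± 0.0887 (SD, n = 6). By p-value it ranked 238 among the 19633 genes. Its adjusted p ranged from 0.00248 to 0.0228 in limma when each of the 12 mice was left out in turn, and it was called in all 12 of these fits. The call was lost after quantile normalization, where Insig1 differed by -0.27 (limma's adjusted p = 0.109). Of all genes, 0.871% were called after that normalization. It was also lost in the smaller fits of batch 1 alone (limma's adjusted p = 0.152), where 0.458% of all genes were called, and batch 2 alone (limma's adjusted p = 0.240), where 0.0% were.

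Srebf2 encodes the transcription factor SREBP2. Its values in filtered air had a lowest of -0.098, a median of -0.030 and a highest of 0.20. After ozone the lowest was -0.29, the median -0.21 and the highest -0.12, so these groups did not overlap either. Srebf2 fell by 0.21 (SE 0.0521, limma's adjusted p = 0.0392), from 0 ± 0.107 (SD, n = 6) to -0.21 ± 0.0705 (SD, n = 6). This call was close to the threshold. It remained in only 2 of the 12 fits that left out 1 mouse, with limma's adjusted p between 0.0364 and 0.0974. It was lost as well with a variance trend (0.0613), with RNA integrity as a covariate (0.0566) and after quantile normalization (0.185), by limma's adjusted p. Of all genes, 3.11% were called with the trend and 4.09% with that covariate. Without filtered-air mouse 4 the difference was -0.16 (limma's adjusted p = 0.0509). Groups without overlap and lower after ozone were found in 2 of 27 genes, against 1.58% of all genes, and 3.53% had no overlap in either direction.

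The other regulators did not pass the test. Scap, the sterol sensor that escorts SREBP2, was close to even, with a difference of 0.034 (95% confidence interval from -0.037 to 0.10). Insig2, the partner of Insig1 that does not depend on SREBP2, had a difference of -0.078 with a wide interval, from -0.28 to 0.13. Its ozone mice ranged from -0.36 to 0.13, and its filtered-air mice from -0.19 to 0.23. Srebf1, which encodes the related factor SREBP1, differed by -0.061 (95% interval from -0.16 to 0.042). The 95% intervals of all 3 include 0, and that of Insig2 is the widest of the 5 regulators.

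The positions of the called genes and the letters before their starts are given because SREBP2 acts through short DNA elements, often next to binding sites of NF-Y (letters CCAAT) and SP1 (letters GGGCGG). Insig1 lies on chromosome 5 from 28071363 to 28078662 and Srebf2 on chromosome 15 from 82147181 to 82205379, both on the plus strand (GENCODE M21, build GRCm38). RefSeq promoter sequences of build GRCm38.p6 matched 23 of the 27 genes. The 250 bases before each annotated start were searched on both strands, and a gene counts as holding a pattern if any of its listed starts does. The 150 bases before the GENCODE start of each gene read as follows, with capitals where the NF-Y letters, the SP1 letters or those of the E-box (CACGTG) match on either strand.
Insig1, chr5:28071213-28071362, plus strand: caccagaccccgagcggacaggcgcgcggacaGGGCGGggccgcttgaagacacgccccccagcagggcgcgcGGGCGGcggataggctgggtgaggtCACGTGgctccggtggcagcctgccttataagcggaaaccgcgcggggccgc
Srebf2, chr15:82147031-82147180, plus strand: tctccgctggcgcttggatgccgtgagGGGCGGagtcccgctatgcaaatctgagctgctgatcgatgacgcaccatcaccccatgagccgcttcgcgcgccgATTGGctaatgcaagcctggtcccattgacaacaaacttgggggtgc

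The stretch before Insig1 holds GGGCGG 2 times and the E-box letters CACGTG 1 time. The stretch before Srebf2 holds GGGCGG 1 time and CCAAT 1 time, the latter on the minus strand. Across the pathway, CCAAT was found before 21 of the 23 genes with a sequence, or 91.3%, against 39.5% of the 12675 kept genes with a sequence. GGGCGG was also found before 21 of 23, against 58.9% of kept genes. CACGTG was found before 5 of 23 (Hsd17b7, Sc5d, Dhcr7, Insig1 and Scap), against 9.17%. Both frequent patterns occurred before Dhcr7, Ebp, Mvd, Tm7sf2 and Tmem97, whose means were higher after ozone, as well as before Insig1 and Srebf2.

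The core of the sterol regulatory element was searched as TCACNCCAC and as shorter or looser forms of it, which overlap it. TCACNCCAC was found before Hmgcs1 alone, 1 of 23 genes, against 1.22% of kept genes. The shorter form CACNCCAC was found before 3 genes (13.0%, against 6.67%), the looser TCACNCNAC before 2 (8.70%, against 2.75%), and the shortest form CACNCCA before 6 (26.1%, against 18.3%). The windows of 30 bases around the CACNCCA match are shown for 4 of these genes, the called genes and the enzymes Hmgcs1 and Msmo1, read on the strand of the match with the match in capitals.
Insig1, chr5:28071392-28071421, minus strand: catggaaggtaCACGCCAcgacactacacg
Srebf2, chr15:82147096-82147125, plus strand: atgacgcaccatCACCCCAtgagccgcttc
Hmgcs1, chr13:119690203-119690232, plus strand: acgtcaccgtctCACCCCActtcccaggtc
Msmo1, chr8:64733737-64733766, minus strand: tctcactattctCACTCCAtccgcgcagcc

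The matches lie 8 bases before the RefSeq start in Insig1, 161 in Srebf2, 136 in Hmgcs1 and 176 in Msmo1. The GENCODE start of Insig1 lies 49 bases before its RefSeq start, so its match is inside the GENCODE gene. The patterns were chosen after the values had been seen. A match describes these letters only, and sites outside the searched bases were not looked for. Among the enzymes with the lowest values after ozone, Cyp51 and Idi1 held CCAAT and GGGCGG but no match to CACNCCA in this window.

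In the mevalonate steps, 7 of 8 enzymes had means below filtered air and 0 passed the test, with a median difference of -0.14. Hmgcs1, the HMG-CoA synthase, had filtered-air values with a lowest of -0.095, a median of -0.013 and a highest of 0.12. After ozone the lowest was -0.19, the median -0.14 and the highest -0.045. Of the 6 ozone mice, 5 lay below every filtered-air mouse, and the difference was -0.13 (SE 0.0424, limma's adjusted p = 0.0981). Idi1, the isomerase that makes dimethylallyl diphosphate, differed by -0.24 (SE 0.0688, limma's adjusted p = 0.0626). Its ozone mice ranged from -0.44 to -0.077 and its filtered-air mice from -0.11 to 0.25, and 5 of 6 ozone mice lay below all filtered-air mice.

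Fdps, the farnesyl diphosphate synthase at the end of this stretch, differed by -0.26 (SE 0.0823, limma's adjusted p = 0.103). Its ozone mice lay between -0.39 and -0.10. Its filtered-air mice lay between -0.16 and 0.034, apart from filtered-air mouse 4 at 0.38. Ggps1, which makes geranylgeranyl diphosphate for protein prenylation, differed by -0.15 (SE 0.0418, limma's adjusted p = 0.0650), with ozone mice from -0.26 to -0.083 and filtered-air mice from -0.11 to 0.074. Without filtered-air mouse 4 its difference was -0.14. The 4 genes Hmgcs1, Idi1, Fdps and Ggps1 are those of this step with an unadjusted p under 0.05. Without the batch covariate, on values already batch-corrected, Idi1 and Ggps1 passed (limma's adjusted p = 0.0414 and 0.0383). With the replicate block, whose numbers mark different animals, Idi1 and Fdps passed. Idi1 also passed without ozone mouse 2 (0.0402), and Ggps1 without filtered-air mouse 3 (0.0371), by limma's adjusted p.

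The rest of the mevalonate enzymes were less clear. Pmvk, the phosphomevalonate kinase, had the widest spread of all 27 genes. Its ozone mice reached from -0.67 to 0.47 and its filtered-air mice from -0.23 to 0.57. Its difference of -0.27 (SE 0.170, limma's adjusted p = 0.483) is thus within the spread between mice, although 5 of 6 ozone mice lay below every filtered-air mouse. Mvk, the mevalonate kinase, differed by -0.069 (95% interval from -0.16 to 0.027). Acat2, the acetoacetyl-CoA thiolase at the entry of the pathway, differed by -0.075 (95% interval from -0.21 to 0.060), and Mvd, the decarboxylase, by 0.029 (95% interval from -0.10 to 0.16).

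**Figure D2:**
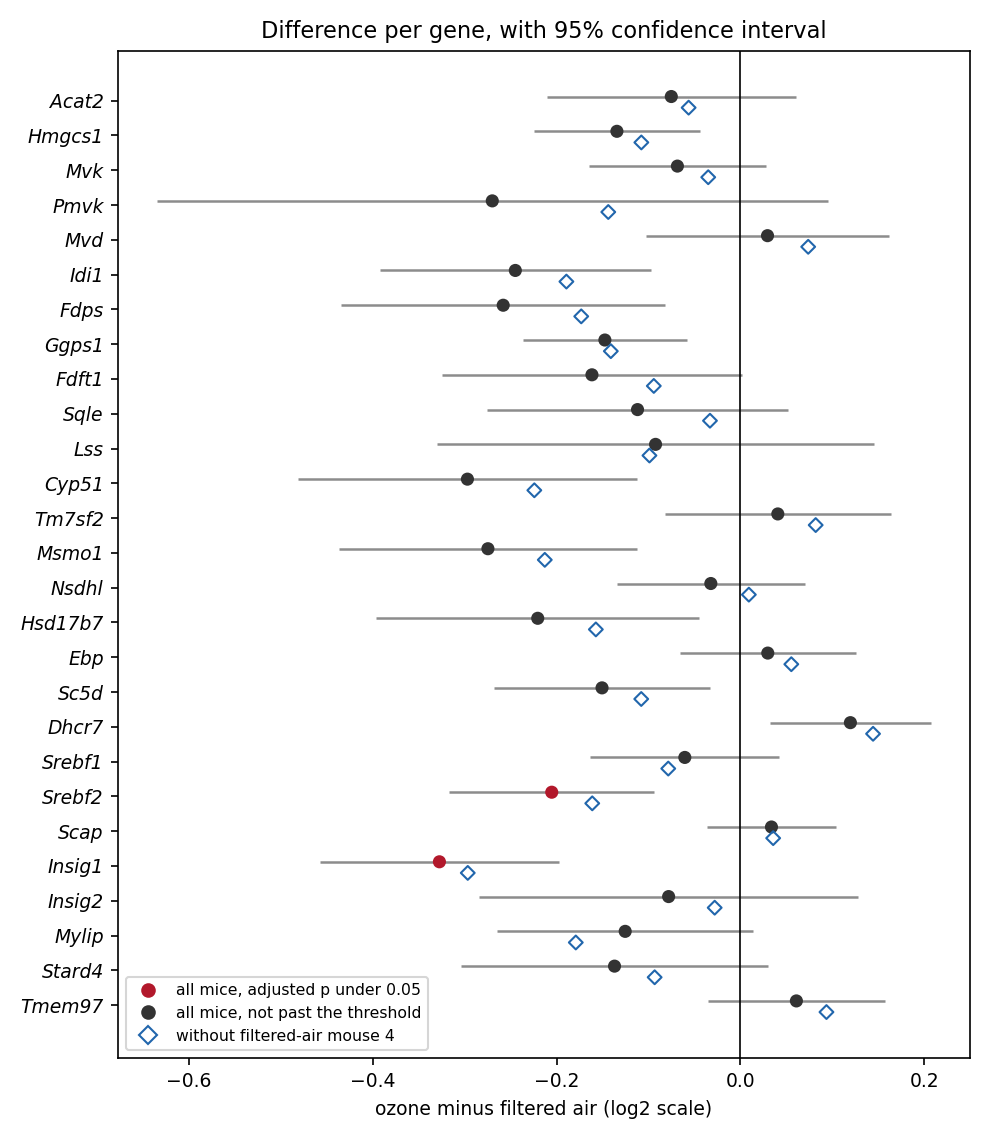
Difference between ozone and filtered air for each of the 27 genes on the log2 scale, with bars for the 95% confidence interval from limma. Filled circles use all 12 mice (red where the adjusted p is under 0.05), and open diamonds show the difference without filtered-air mouse 4. Insig1 and Srebf2 are the red points, and most diamonds lie to the right of their circles.

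In the steps from squalene to sterol, 8 of 11 enzymes had means below filtered air and 0 passed the test, with a median difference of -0.11. The lowest means were those of Cyp51, Msmo1 and Hsd17b7. Cyp51, the lanosterol demethylase, had filtered-air values with a lowest of -0.18, a median of -0.051 and a highest of 0.33, and ozone values with a lowest of -0.46, a median of -0.30 and a highest of -0.072. Its difference was -0.30 (SE 0.0860, limma's adjusted p = 0.0708), with 5 of 6 ozone mice below all filtered-air mice. Msmo1, the methylsterol monooxygenase, had filtered-air values with a lowest of -0.25, a median of -0.015 and a highest of 0.28, and ozone values with a lowest of -0.35, a median of -0.32 and a highest of -0.12. Its difference was -0.27 (SE 0.0756, limma's adjusted p = 0.0571), and 4 of 6 ozone mice lay below all filtered-air mice. Both genes passed with the replicate block and without the batch covariate, fits with the limits stated above. In the latter limma's adjusted p was 0.0481 for Cyp51 and 0.0379 for Msmo1. Both also passed without ozone mouse 2 (0.0401 and 0.0482), and Msmo1 without filtered-air mouse 6 (0.0151), by limma's adjusted p.

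Hsd17b7, the sterol ketoreductase that works with Msmo1 and Nsdhl in removing methyl groups, differed by -0.22 (SE 0.0822, limma's adjusted p = 0.171), and Sc5d, the lathosterol desaturase, by -0.15 (SE 0.0551, limma's adjusted p = 0.160). The ozone mice of Sc5d ranged from -0.29 to -0.052 and its filtered-air mice from -0.089 to 0.19. Cyp51, Msmo1, Hsd17b7 and Sc5d were the lower genes of this step with an unadjusted p under 0.05. Fdft1, the squalene synthase, differed by -0.16 (95% interval from -0.32 to 0.0015), and Sqle, the squalene epoxidase, by -0.11 (95% interval from -0.28 to 0.051). In both, filtered-air mouse 4 was the highest of all 12 mice, at 0.30 and 0.35. Lss, the cyclase that forms lanosterol, varied widely after ozone, from -0.40 to 0.29, and its difference of -0.092 (SE 0.111) is within that spread.

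Dhcr7, Ebp and Tm7sf2 had means above filtered air and Nsdhl below it, and all of these but Dhcr7 were near 0. Dhcr7, the reductase that turns 7-dehydrocholesterol into cholesterol, had values with a lowest of -0.12, a median of 0.0034 and a highest of 0.11 in filtered air. After ozone the lowest was 0.083, the median 0.12 and the highest 0.17, so all 6 ozone mice were above the filtered-air mean and 3 were above every filtered-air mouse. The difference was 0.12 (SE 0.0410, limma's adjusted p = 0.133), which did not pass over all genes. It was the 1 gene of the 27 that was higher at an unadjusted p under 0.05. Ebp, the sterol isomerase, differed by 0.030 (95% interval from -0.066 to 0.13), Tm7sf2, a sterol reductase, by 0.041 (95% interval from -0.082 to 0.16), and Nsdhl, the dehydrogenase of the same demethylation steps as Msmo1 and Hsd17b7, by -0.032 (95% interval from -0.13 to 0.070).

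**Figure D3:**
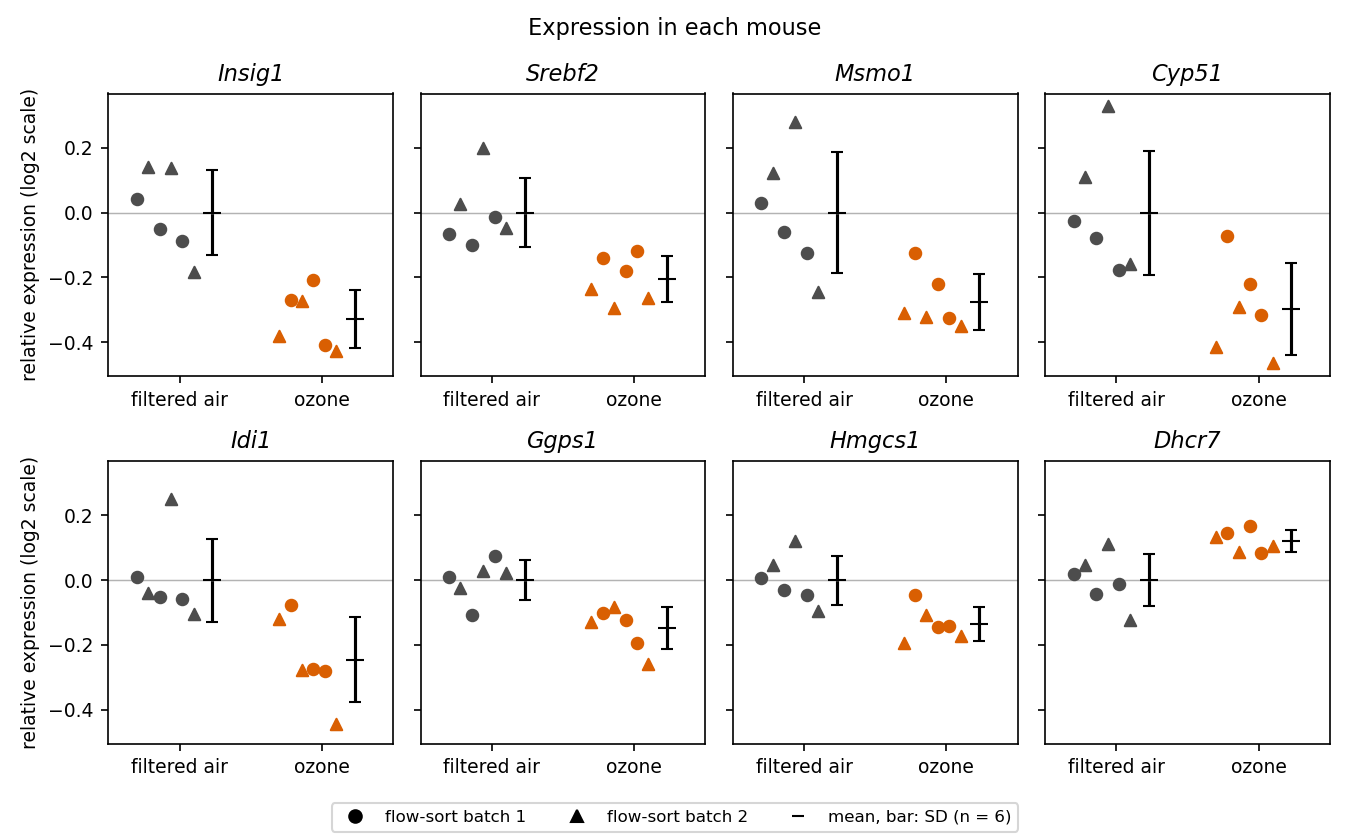
Expression of 8 genes in each mouse, on the log2 scale relative to the filtered-air mean, by group, with circles for flow-sort batch 1, triangles for batch 2, and the mean ± SD (n = 6) beside each group. The groups are apart in Insig1 and Srebf2 and overlap in the other 6 genes, and Dhcr7 lies higher after ozone with a narrow spread.

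Of the genes of uptake and intracellular transport, 0 of 3 passed the test. Mylip encodes an E3 ubiquitin ligase, induced by the oxysterol receptor LXR, that sends lipoprotein receptors to degradation. It differed by -0.13 (SE 0.0651, limma's adjusted p = 0.363), with ozone mice from -0.26 to -0.029 and filtered-air mice from -0.24 to 0.16. Without filtered-air mouse 4, the lowest of its group, Mylip differed by -0.18 (limma's adjusted p = 0.0888). Stard4, a carrier of cholesterol between membranes, differed by -0.14 (SE 0.0778, limma's adjusted p = 0.420), with ozone mice from -0.30 to 0.012 and filtered-air mice from -0.19 to 0.20. Tmem97, a sterol-binding membrane protein also known as the sigma-2 receptor, differed by 0.061 (SE 0.0448, limma's adjusted p = 0.569).

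Filtered-air mouse 4 stood apart from the other filtered-air mice in this pathway. It was the highest filtered-air mouse in 20 of the 27 genes and in 16 of the 19 enzymes, against 18.8% of all genes kept. Its mean over the 19 enzymes was 0.22, where the other 5 filtered-air mice lay between -0.079 and 0.016. It was low instead in Mylip, at -0.24, the lowest of its group. Its RNA integrity number of 8.9 was the lowest of the 12, the others lying between 9.2 and 9.7. By group the integrity number was 9.42 ± 0.293 (SD, n = 6) in filtered air, against 9.48 ± 0.172 (SD, n = 6) in ozone mice (exact permutation test, two-sided, p = 0.747).

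Without filtered-air mouse 4 the median difference of the 27 genes was -0.094, with 20 of 27 lower and 1 called, Insig1, at -0.30 (SE 0.0606, limma's adjusted p = 0.0152), against 3.79% of all genes called. At an unadjusted p under 0.05, 11 genes were then lower (Mylip joining the 10) and 2 higher (Dhcr7 and Tmem97), against 7.77% of all genes lower and 7.97% higher. Dhcr7 then differed by 0.14 (limma's adjusted p = 0.0619). The differences of Pmvk, Fdps, Sqle and Cyp51 moved most towards 0, to -0.14, -0.17, -0.033 and -0.22. Those of Fdft1, Mvk and Insig2 became -0.094, -0.035 and -0.028, and that of Nsdhl 0.0091. The higher means of Mvd, Tm7sf2, Ebp and Tmem97 became 0.074, 0.082, 0.055 and 0.094. Other single mice also moved members that were not called. Over the 12 fits without 1 mouse, Acat2 ranged from -0.11 to -0.028 (without ozone mouse 6), Lss from -0.18 to -0.023 (ozone mice 6 and 3 left out, in that order), and Insig2 from -0.12 to -0.015 (without ozone mouse 5). Pmvk reached -0.43 without ozone mouse 2. Srebf1 ranged from -0.095 to -0.039, Scap from 0.019 to 0.046, Tm7sf2 from 0.016 to 0.082 and Ebp from 0.012 to 0.055. Averaged over the 19 enzymes, filtered-air mice lay at 0 ± 0.111 (SD, n = 6) and ozone mice at -0.12 ± 0.0748 (SD, n = 6). By mouse it was highest after ozone in mouse 2, at 0.0083, and lowest in mouse 6, at -0.19, so the groups overlapped. Ozone mouse 2 was the highest ozone mouse in 11 of the 19 enzymes, against 12.6% of all genes, and mouse 6 was the lowest in 10 of 19, against 23.6%.

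Markers of other cells moved with this mouse. Lists of markers for epithelium, lymphocytes, neutrophils, monocytes, endothelium and fibroblasts all passed the filter on low values, except Ly6g and Mpo of the neutrophil list. Filtered-air mouse 4 had the highest mean of its group in the lists for epithelium (0.36, range of the group -0.29 to 0.36), lymphocytes (0.27, from -0.22), neutrophils (0.41, from -0.23), monocytes (0.35, from -0.23) and fibroblasts (0.11, from -0.077). In the endothelial list it was second, at 0.31, below 0.38. After ozone the list means ranged from -0.22 to -0.011 for epithelium, -0.23 to -0.014 for lymphocytes, -0.068 to 0.081 for neutrophils, -0.19 to 0.059 for monocytes, -0.32 to 0.31 for endothelium and -0.090 to 0.24 for fibroblasts. In the order of these ranges, the lists had 6, 5, 3, 4, 4 and 4 genes after the filter. In these 6 lists 1 gene was called, Epcam, where 4.25% of all genes were called in either direction. Epcam fell by 0.55 (limma's adjusted p = 0.00620).

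All 10 markers of alveolar macrophages lay above the lowest shared value in all 12 mice, with list means from -0.10 to 0.11 in filtered air and from -0.025 to 0.17 after ozone. The lowest filtered-air mean of this list was that of mouse 4. Of this list 1 gene was called lower and 2 higher, against 1.84% and 2.41% of all genes. Krt79 fell by 0.35, Chil3 rose by 0.25 and Car4 by 0.32 (limma's adjusted p = 0.0177, 0.0320 and 0.0460). Marco had the largest difference of the list, 0.58 (limma's adjusted p = 0.108). Without filtered-air mouse 4 that of Marco was 0.37 (limma's adjusted p = 0.0396). With 1 mouse left out, Krt79 was called in 12 of 12 fits, Chil3 in 5 and Car4 in 4. Markers of proliferation rose with exposure, 6 of 6 called, where 2.41% of all genes were called as higher. Their list means ran from 0.41 to 0.65 after ozone and from -0.29 (mouse 4) to 0.27 in filtered air. The part of other cells and of proliferation in the pathway's values was not tested. The fits without mouse 4 leave out 1 mouse and hold no marker values, so they cannot tell it.

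The difference was also taken within each flow-sort batch. In batch 1 (3 mice against 3) the median over the 27 genes was -0.018, with 18 of 27 lower. In batch 2 it was -0.18, with 25 of 27 lower. All 19 enzymes had a more negative difference in batch 2 than in batch 1, against 50.9% of all genes. In limma's test of this interaction 5 of 27 genes had an unadjusted p under 0.05, against 2.6% of all genes. All 5 were more negative in batch 2, against 1.28%. After adjustment 0 of 27 and 0 of all genes passed, and limma's adjusted p was 0.99978 for each member. Those 5 were Hsd17b7, Srebf2, Cyp51, Sc5d and Fdps. Filtered-air mouse 4 belongs to batch 2. Without it the batch 2 median was -0.14, with 20 of 27 lower, so a gap to batch 1 remained in the median.

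**Figure D4:**
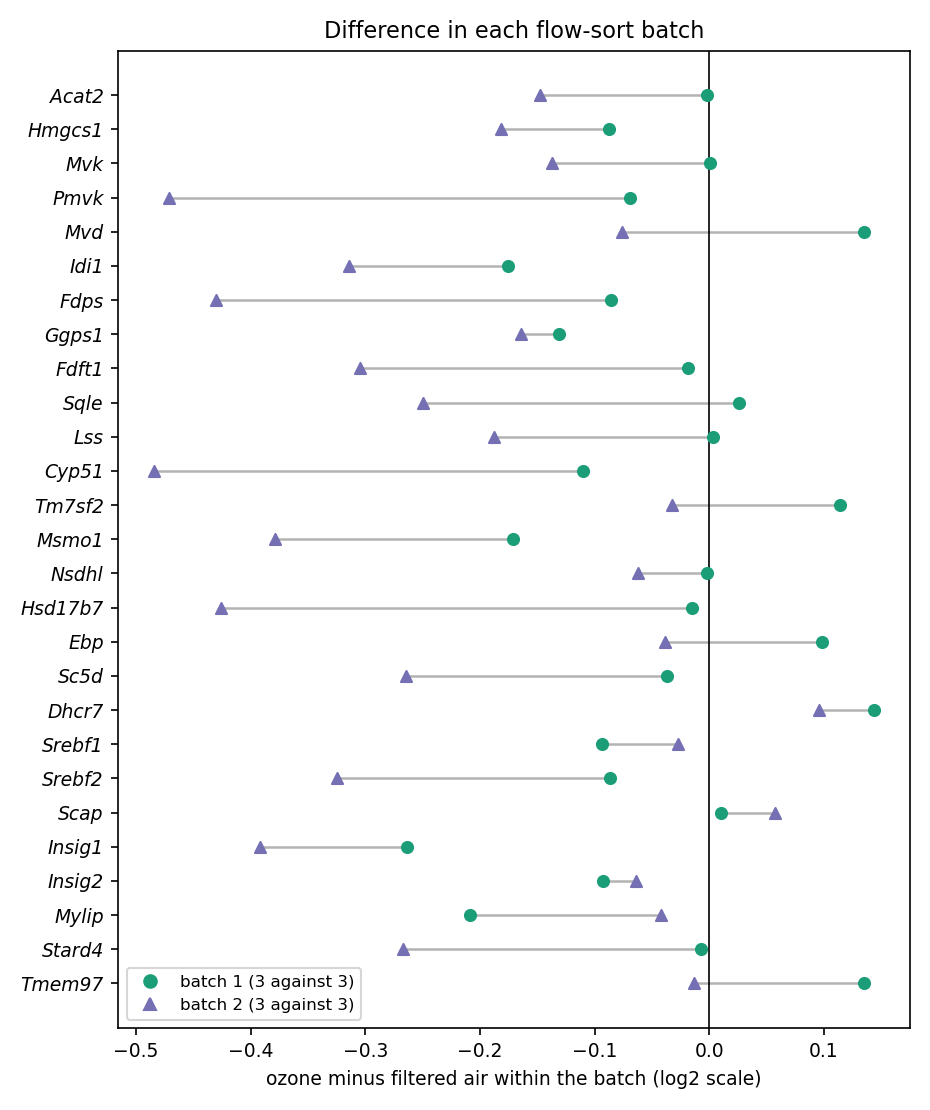
Difference between ozone and filtered air within flow-sort batch 1 (circles) and batch 2 (triangles), 3 mice against 3 in each, for the 27 genes on the log2 scale. In the 19 enzymes, from Acat2 to Dhcr7, every triangle lies to the left of its circle, and Insig1 is well below 0 in both batches.

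Insig1 was lower in both batches, by -0.26 in batch 1 and -0.39 in batch 2. Srebf2 differed by -0.086 and -0.32, Cyp51 by -0.11 and -0.48, Hsd17b7 by -0.015 and -0.43, and Msmo1 by -0.17 and -0.38. Ggps1 was nearly equal in both, at -0.13 and -0.16. Dhcr7 was higher in both, at 0.14 and 0.096. Sqle and Mvk had differences of 0.026 and 0.00029 in batch 1 and of -0.25 and -0.14 in batch 2. The batches share no mice. With 3 against 3, 0 members were called in either, where 0.458% of all genes were called in batch 1 and 0.0% in batch 2.

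The enzymes also varied together between mice of the same group. After the group and batch means were removed, the median Pearson correlation over the 171 pairs of the 19 enzymes was 0.59, and 90.1% of the pairs were positive. The enzymes' median correlation with all genes kept was -0.0011. These values describe 12 mice that share 1 normalization and batch correction, and filtered-air mouse 4 carries part of them: without it the median was 0.31, with 77.8% positive. The closest pair was Fdps and Sqle (0.97, and 0.86 without mouse 4), followed by Hmgcs1 and Cyp51 (0.94 and 0.89) and Cyp51 and Msmo1 (0.93 and 0.85). Dhcr7 deviated together with Msmo1 (0.92 and 0.85), although its mean lay on the other side of 0 after ozone. Mylip, Srebf1 and Scap had negative median correlations with the other genes, of -0.59, -0.42 and -0.30, and Lss was near 0, at -0.036. Without mouse 4 these medians were -0.32 for Mylip, -0.30 for Srebf1 and -0.49 for Scap, and that of Tm7sf2 turned from 0.20 to -0.37. These correlations are given as a description, with no test.

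Other genes around the pathway were read from 5 lists with 63 genes, all of which passed the filter on low values. In total 4 were called as lower and 3 as higher, where 1.84% of all genes were called as lower and 2.41% as higher, and the median difference was -0.0062. Groups without overlap were found in 3 of the 63 as lower and 2 as higher. Of all genes, 1.58% had no overlap and were lower, and 3.53% had none in either direction. Of 13 genes that process SREBP or carry out sterol-regulated degradation, 1 was called lower and 1 higher. Rnf145, a sterol-responsive ubiquitin ligase of the endoplasmic reticulum, fell by 0.30 (SE 0.0565, limma's adjusted p = 0.00806). Its ozone mice lay between -0.47 and -0.12 and its filtered-air mice between -0.10 and 0.10, so the groups were apart. Erlin2, part of a complex that marks endoplasmic reticulum proteins for degradation, rose by 0.23 (SE 0.0460, limma's adjusted p = 0.0113). Both were called in all 12 fits that left out 1 mouse. Over the other alternatives, single batches among them, limma's adjusted p reached 0.573 for Rnf145 and 0.743 for Erlin2. In batch 2 alone 0.0% of all genes were called, so every call in these 5 lists was lost there.

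Among 11 genes of the isoprenoid branches, 1 was called, where 4.25% of all genes were called in either direction. Fnta, the alpha subunit shared by the enzymes that attach farnesyl and related lipids to proteins, fell by 0.20 (SE 0.0375, limma's adjusted p = 0.00899). Its ozone mice (-0.25 to -0.13) did not overlap its filtered-air mice (-0.084 to 0.077). Dhdds of this list had no overlap either, but was higher after ozone, by 0.057 (limma's adjusted p = 0.381). Of 18 SREBP targets outside sterol synthesis, 12 had lower means, 1 was called lower and 1 higher, with a median of -0.041. At an unadjusted p under 0.05, 5 of the 18 were lower and 1 higher, against 8.29% and 8.43% of all genes. Filtered-air mouse 4 was the highest of its group in 11 of the 18, against 18.8% of all genes. Without it 4 were lower and 3 higher at that level, against 7.77% and 7.97%. Then 3 of the 18 were called, against 3.79% of all genes. Among them was Aldoc, named after its values were seen, higher by 0.25 (limma's adjusted p = 0.0220). Elovl6, a fatty acid elongase, fell by 0.46 (SE 0.0913, limma's adjusted p = 0.0111), from filtered-air values of -0.13 to 0.27 to ozone values of -0.62 to -0.18. Fads1, the delta-5 fatty acid desaturase, rose by 0.27 (SE 0.0635, limma's adjusted p = 0.0286). This rise was called in 4 of the 12 fits without 1 mouse, with limma's adjusted p from 0.00325 (without filtered-air mouse 4) to 0.0730. Scd1 and Scd2, stearoyl-CoA desaturases named after their values were seen, differed by -0.41 and -0.32 and did not pass (limma's adjusted p = 0.0729 and 0.0877).

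Of 16 lipoprotein receptors and genes of lysosomal cholesterol handling, 10 had higher means and 1 was called. Lrpap1, a chaperone of lipoprotein receptors, rose by 0.15 (SE 0.0341, limma's adjusted p = 0.0222), and the groups did not overlap. It was called in 10 of the 12 fits without 1 mouse. At an unadjusted p under 0.05, 6 of the 16 genes were higher and 0 lower, against 8.43% and 8.29% of all genes. Beside Lrpap1 these were Lrp8, Npc2, Soat1, Scarb1 and Lipa, which are named after their values were seen. Of 5 genes that supply electrons to the sterol enzymes or hold them together, Cyb5r3, the cytochrome b5 reductase, fell by 0.21 (SE 0.0494, limma's adjusted p = 0.0275), a call found in 5 of the 12 fits without 1 mouse. The other 4 genes of that list had higher means and were not called.

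Reads of some members may be shared with near copies. Acat2 matched the transcript of Acat3 at 97.7% identity over 1477 bases, Fdft1 matched Gm6781 at 97.4% over 1249 bases, Ggps1 matched Gm5630, Idi1 matched Gm13502 and Gm35570, and Tmem97 matched Gm5809. The values of Acat2, Fdft1, Ggps1, Idi1 and Tmem97 are uncertain to that extent. Acat3 itself differed by -0.00011 (SE 0.0472) and Gm6781 by 0.016 (SE 0.0528). Transcripts of other genes overlap Fdft1 (Ctsb, 774 bases at 100% identity), Acat2 (Tcp1), Hmgcs1 (Gm48342) and Idi1 (Gm48574). Ctsb was called as higher, at 0.18 (limma's adjusted p = 0.0345). Insig1, Srebf2, Cyp51, Msmo1, Fdps and Dhcr7 had no match of at least 95% identity over 300 bases.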

How the data were processed

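RNA was measured in 12 mice, 6 per group, with 1 library per mouse. Per the labels' protocols, libraries came from a stranded mRNA kit read in pairs on an Illumina instrument. The submitters' processing notes name cutadapt, STAR 2.7.7a, Salmon 1.5.2, DESeq2 1.26.0, R 3.6.0, limma 3.42.2 and build mm10, with no role for each, and the annotation is not given in the sources used here. The deposited values are on a log2 scale after the authors' variance-stabilizing transformation and batch correction, per the file's name. In every gene the filtered-air mean and the difference between batch means were 0. Read totals are unknown, so no counting error can be given.

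Genes were kept where at least 6 of 12 mice lay above the minimum that mice of a batch shared (within 1e-06), 19633 of 25444 that were not constant. Limma 3.58.1 in R 4.3.3 was fitted to all of them without a variance trend, with flow-sort batch as covariate, and p-values were adjusted by Benjamini-Hochberg over all genes at 0.05. The fit was tested on simulated data. The members and lists were chosen with earlier results of these data known, so no set test was made. All members were named. Of the other pathway lists, every called gene and the gene with the smallest p were named. Near copies were searched with BLAST 2.17.0 among GENCODE M21 transcripts (95% identity, 300 bases). Alternatives were filters, covariates, variance models, normalizations, single batches and mice left out.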

Additional observations from a re-analysis of the deposited data

Results flagged for a closer look

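Filtered-air mouse 4 lay far from the other mice of its group in 6 genes, as the highest of the 6 filtered-air mice in each (gap to the next mouse over the group's range above Dixon's 95% critical value). These were Pmvk at 0.57 (ratio 0.713, next mouse 0.0021), Idi1 at 0.25 (ratio 0.679), Sqle at 0.35 (ratio 0.656), Fdps at 0.38 (ratio 0.645), Mvk at 0.15 (ratio 0.642) and Tmem97 at 0.15 (ratio 0.636). They are 6 of 54 combinations of gene and group, where chance gives about 1 in 20, or 2.7, and the genes are not independent of each other. No ozone mouse stood apart in this way in any of the 27 genes.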

How the results depend on the processing

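The 2 called members became 6 without the batch covariate, 6 with the replicate block, 1 with the variance trend and 1 with the RNA integrity covariate. The number was 0 after quantile normalization, in batch 1 alone, in batch 2 alone and in batch 2 without filtered-air replicate 4 (the last chosen after seeing the data). Single batches use fewer mice. The values were already batch-corrected, so the fit without the covariate kept every difference and only dropped the batch's degree of freedom. For the others the cause was not tested. Where 0 were called, Insig1 and Srebf2 both lost their calls. Where 1 was called under the variance trend or the RNA integrity covariate, it was Insig1. With the replicate block limma's adjusted p was 0.0493 for Idi1, 0.0442 for Fdps, 0.0164 for Cyp51 and 0.0161 for Msmo1. Of all genes, 5.87% were called without the batch covariate, 4.34% with the block, 3.11% with the trend, 4.09% with RNA integrity, 0.871% after quantile normalization, 0.458% in batch 1 and 0.0% in batch 2 with or without that mouse. With 1 mouse left out the number ranged from 1 to 4 (4 without ozone replicate 2), the lower members from 20 to 22 and the median from -0.14 to -0.094 (without filtered-air replicate 4). In batch 1 alone the median was -0.018. Replicate numbers occur in both groups but mark different animals. Deviations of same-numbered mice correlated from -0.0026 to 0.28, 4 of 6 over 0.1, and 3 of 6 ozone mice correlated best with their own number. Signs changed for 9 members, none of them called, and the cause was not tested: in batch 1 alone Lss (0.0030), Mvk (0.00029) and Sqle (0.026), in batch 2 alone Ebp (-0.039), Mvd (-0.076), Tm7sf2 (-0.032) and Tmem97 (-0.013), in batch 2 without filtered-air replicate 4 Insig2 (0.053), Mvd (-0.0025) and Nsdhl (0.023). With 1 mouse left out, Nsdhl ranged from -0.063 to 0.0091 (above 0 without filtered-air replicate 4) and Mvd from -0.0067 to 0.074 (below 0 without filtered-air replicate 5).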
